A study of Mus musculus with 14 samples.

Results

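The data compare, at the first of the study's time points, neocortical progenitor cells of CD1 mouse embryos that had received a Fezf2 vector with cells that had received a control vector. By the sample titles, 3 of the 14 arrays of the series hold Fezf2 cells collected 24 h after electroporation and 3 hold the matching control cells. Every embryo was electroporated in utero at E14.5 into the cortex through the lateral ventricle, and every group, controls included, carried GFP. The groups used here are CtrlGFP and Fezf2GFP at 24 h (n = 3 arrays each), and for the comparison in time the same 2 vectors at 48 h (n = 4 arrays each). GFP-positive cells were sorted by FACS, and in vitro transcription in 2 rounds amplified their RNA. The sources used here do not give the promoter of the vectors. The labels do not tie arrays to litters, and p-values thus measure only the spread between these samples, which may be technical. Of 45037 probe sets, 17407 were paired with exactly 1 gene symbol and lay above a log2 level of 4, the dim level, in at least 3 of the 14 arrays. Taking the brightest probe set of each gene left 10295 genes of 18193.

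Fezf2 is a zinc finger transcription factor of the forebrain. It is expressed in cortical progenitors and in young deep-layer neurons, and it is required for corticospinal motor neurons, the layer V cells that project to the spinal cord. At E14.5 the progenitors that line the ventricle mostly give rise to upper-layer callosal neurons, and the design text states that Fezf2 given at this stage redirects them towards corticofugal fates, so the 24 h comparison asks which transcripts differ at the start.

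Array medians lay between 3.26 and 3.50, and arrays of a group correlated at 24 h across genes at 0.949 to 0.994 (CtrlGFP) and 0.982 to 0.991 (Fezf2GFP). CtrlGFP 24 h replicate 1 had the highest median and stood apart from the other control arrays, as CtrlGFP 48 h replicate 2 did at 48 h. Progenitor markers were present in the sorted cells, and so were genes of young neurons. All 36 tested radial glia genes had at least 1 array at 24 h above the dim level, Pax6 lay between 10.96 and 11.99 over the 6 arrays at 24 h, and Eomes, a marker of intermediate progenitors, between 14.497 and 14.85. Slc17a7, a glutamate transporter of mature cortical neurons, stayed between 2.83 and 3.11 over all 14 arrays, below the dim level. For 45 immature neuron genes the summed level (log2 of the sum of the linear values) ran from 18.46 to 18.76 in CtrlGFP at 24 h. In Fezf2GFP at 24 h it ran from 18.76 to 18.78. The share of young neurons in the samples was not tested. Levels below are log2 GCRMA values, given for replicates 1, 2 and 3 in that order with CtrlGFP first, and changes are Fezf2GFP minus CtrlGFP on the log2 scale with limma's standard error and Benjamini-Hochberg adjusted p.

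The probe set for Fezf2 did not read higher in the cells labelled as carrying Fezf2. Fezf2 read 10.82, 11.54 and 11.54 in the CtrlGFP arrays and 9.31, 9.50 and 9.52 in the Fezf2GFP arrays. Each Fezf2GFP array lay below each control array (log2 change -1.86 ± 0.38 (SE), adjusted p = 0.0324). At 48 h the values were 10.65, 9.63, 10.44 and 9.87 in the CtrlGFP arrays and 10.25, 8.67, 8.93 and 9.48 in the Fezf2GFP arrays; those groups overlapped and the change was -0.82 ± 0.33 (SE), adjusted p = 0.239. The sources used here do not say whether the vector holds the stretch that these probes read. This level therefore does not check the labels, and each direction below rests on the arrays labelled Fezf2GFP. The call of the fall was lost in 5 of the 14 fits that left out 1 array, with an adjusted p of 0.157 without Fezf2GFP 24 h replicate 1, and an exact two-sided permutation test over the 6 arrays gave 0.1, the smallest p that 3 against 3 allows.

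At 24 h, 109 of 10295 genes passed an adjusted p of 0.05 (1.06%), 83 higher (0.806%) and 26 lower (0.253%) in Fezf2GFP. None of the 109 had overlapping groups, and over all genes tested the groups did not overlap in 19.6%. The rises were the larger changes: 51 of the 83 exceeded 2 on the log2 scale, against 4 of the 26 falls. For 17 of the rises all 3 control arrays lay at or below the dim level, for 11 others 1 or 2 did, and 55 were above it in every control array. Of the falls, 0 had all 3 Fezf2GFP arrays at or below it and 3 had 1 or 2. Centring each array on a common median changed the split to 82 higher and 44 lower, and leaving out both control arrays that stood apart gave 57 higher and 35 lower. With 1 array left out the count ran from 50 without CtrlGFP 24 h replicate 2 to 165 without CtrlGFP 48 h replicate 2; it was also 55 without Fezf2GFP 24 h replicate 1 and 66 without CtrlGFP 24 h replicate 3. Of the 109 genes, 42 kept their call in each of these 14 fits, and 67 lost it in at least 1; for those described below, the number of such fits is given with the highest adjusted p among them and the array left out there.

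An anion transporter, a homeobox factor and a matrix protein were among the large rises; where all control arrays were dim, the size is a lower bound and gives no rank. Slc26a7, an anion exchanger of the plasma membrane, read 2.94, 3.73 and 4.36 in the CtrlGFP arrays and 10.59, 9.82 and 10.08 in the Fezf2GFP arrays. It went from the edge of detection to a bright signal in each Fezf2GFP array (log2 change 6.48 ± 0.73 (SE), adjusted p = 0.000771). Uncx, a paired-type homeobox factor, read 3.13, 3.08 and 3.05 in the CtrlGFP arrays and 7.79, 7.49 and 7.93 in the Fezf2GFP arrays. Its control arrays were all dim, and with dim arrays counted at 4 the rise is at least 13.4-fold (log2 change 4.65 ± 0.59 (SE), adjusted p = 0.00169). Frem1, a secreted protein of the basement membrane, read 3.28, 2.95 and 2.89 in the CtrlGFP arrays and 8.24, 7.27 and 6.71 in the Fezf2GFP arrays, at least 10.6-fold higher (log2 change 4.37 ± 0.51 (SE), adjusted p = 0.00104). Each of these 3 genes kept its call in all 26 alternative fits.

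**Figure D1:**
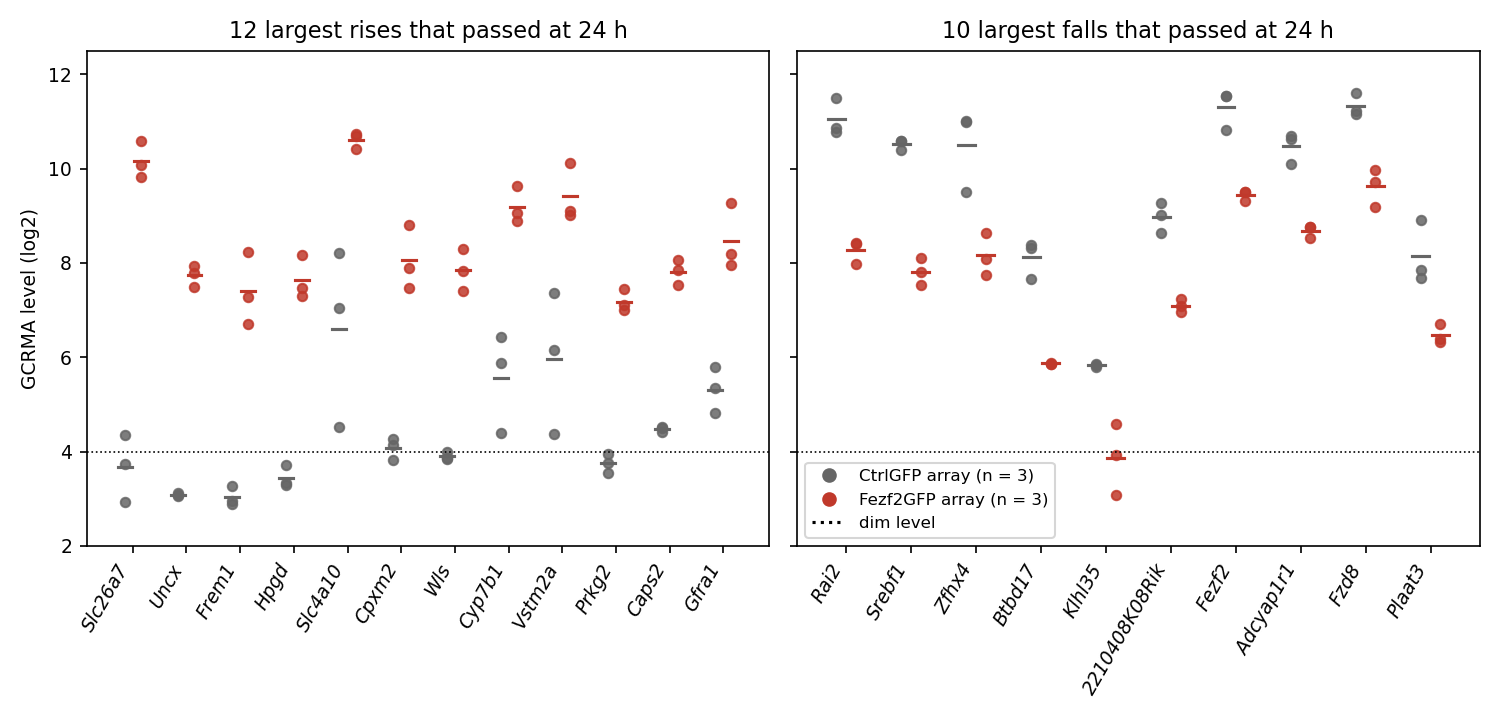
The plot gives the GCRMA level (log2, vertical axis) of the 12 largest rises and 10 largest falls by fitted difference in each of the 6 arrays at 24 h, grey for CtrlGFP and red for Fezf2GFP, with a short line at each mean and a dotted line at the dim level of 4. The red points lie clear of the grey points for each gene; Slc26a7 rose by 6.48 and Rai2 fell by 2.78.

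Among the falls, transcription regulators came first. Rai2, a nuclear protein that binds corepressors, read 11.50, 10.78 and 10.87 in the CtrlGFP arrays and 8.43, 8.40 and 7.97 in the Fezf2GFP arrays (log2 change -2.78 ± 0.31 (SE), adjusted p = 0.000761). Srebf1, the transcription factor that drives fatty acid synthesis genes, read 10.58, 10.59 and 10.40 in the CtrlGFP arrays and 7.54, 7.81 and 8.10 in the Fezf2GFP arrays (log2 change -2.70 ± 0.28 (SE), adjusted p = 0.000568). Both remained above the dim level in each Fezf2GFP array, so the fall is a partial one. Zfhx4, a large protein with zinc fingers and homeodomains, read 9.51, 11.01 and 10.98 in the CtrlGFP arrays and 7.75, 8.09 and 8.64 in the Fezf2GFP arrays (log2 change -2.34 ± 0.42 (SE), adjusted p = 0.0154). CtrlGFP replicate 1 was the lowest of the controls for Zfhx4 and the highest for Rai2. Zfhx4 lost its call in 4 of the 14 fits that left out 1 array (adjusted p 0.0929 without Fezf2GFP 24 h replicate 1), while Rai2 and Srebf1 kept theirs.

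The genomic sequence just before the start is shown for some genes that passed in the same direction at 24 h and at 48 h. They have exactly 1 promoter in the RefSeq table used here (build GRCm38.p6). Among such genes they had the largest rises and falls by fitted difference at 24 h, with the genes of 1 chromosome left out. The control arrays of Hpgd were all dim, so its size is a lower bound. Fezf2 was added as the gene of the vector. Each run is 120 bases that end at the base before the start, written 5′ to 3′ on the strand of the gene. Capitals mark the CCAAT box, the TATAAA element and the GC box, GGGCGG, on either strand, so the reverse forms are in capitals too.
Fezf2 (chr14:12345866-12345985, minus strand): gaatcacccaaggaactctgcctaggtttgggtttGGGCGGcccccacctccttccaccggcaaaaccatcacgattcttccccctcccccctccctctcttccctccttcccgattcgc
Hpgd, higher (chr8:56294432-56294551, plus strand): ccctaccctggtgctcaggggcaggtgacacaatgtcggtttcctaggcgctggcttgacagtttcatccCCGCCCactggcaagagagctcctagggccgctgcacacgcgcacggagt
Caps2, higher (chr10:112165556-112165675, plus strand): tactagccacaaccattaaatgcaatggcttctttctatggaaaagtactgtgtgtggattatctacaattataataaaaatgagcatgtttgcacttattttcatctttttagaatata
Elovl7, higher (chr13:108214284-108214403, plus strand): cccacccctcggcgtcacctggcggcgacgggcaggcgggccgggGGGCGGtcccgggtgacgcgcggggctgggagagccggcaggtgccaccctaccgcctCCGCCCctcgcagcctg
Btbd17, lower (chr11:114795893-114796012, minus strand): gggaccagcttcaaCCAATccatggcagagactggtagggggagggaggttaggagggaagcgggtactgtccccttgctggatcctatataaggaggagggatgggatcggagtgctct
Klhl35, lower (chr7:99465884-99466003, plus strand): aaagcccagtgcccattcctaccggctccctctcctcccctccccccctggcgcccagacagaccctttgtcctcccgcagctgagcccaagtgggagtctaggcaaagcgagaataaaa
Adcyap1r1, lower (chr6:55451858-55451977, plus strand): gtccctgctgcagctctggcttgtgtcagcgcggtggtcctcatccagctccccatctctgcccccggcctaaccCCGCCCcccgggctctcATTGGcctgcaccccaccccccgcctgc
The GC box stood in the Fezf2, Hpgd, Elovl7 and Adcyap1r1 runs, and CCAAT in those of Btbd17 and Adcyap1r1. In the 250 bases before the start, 23 of 47 rises with 1 promoter in the table held GGGCGG on either strand (48.9%), as did 9 of 14 falls (64.3%) and 63.7% of the 6639 tested genes with 1 promoter. CCAAT stood in 34.0% of the rises, 28.6% of the falls and 38.1% of all; TATAAA in 8.51%, 7.14% and 5.78%. Median GC content was 59.6% for the rises, 63.2% for the falls and 60.8% for all. A match is a run of letters, not a site of binding. Slc26a7, Uncx, Frem1, Rai2, Srebf1 and Zfhx4 are not shown.

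Carriers of ions and small molecules passed in both directions. Of 169 solute carriers tested, 4 rose and 1 fell, beside 0.806% and 0.253% of all genes tested. The median of the list was 0.09 (0.04 without CtrlGFP 24 h replicate 1), against 0.06 over all genes; beside this and later medians stand the lowest and highest value with 1 array at 24 h left out, where it turned sign or moved over 1.5 times. Slc4a10, a sodium-driven bicarbonate transporter of neurons, read 4.53, 7.04 and 8.22 in the CtrlGFP arrays and 10.70, 10.42 and 10.73 in the Fezf2GFP arrays (log2 change 4.02 ± 0.72 (SE), adjusted p = 0.0142). The controls were widely spread, CtrlGFP replicate 1 was the lowest of them, and the Fezf2GFP arrays were close together. Slc39a8, which imports zinc and manganese, read 6.92, 6.64 and 7.01 against 10.19, 9.44 and 9.19 (log2 change 2.76 ± 0.40 (SE), adjusted p = 0.00414). Slc24a3, a potassium-dependent sodium and calcium exchanger, read 7.05, 7.05 and 6.97 against 9.11, 8.42 and 7.95 (log2 change 1.47 ± 0.29 (SE), adjusted p = 0.0284). Slc15a2, a transporter of small peptides, went the other way and fell in a tight group of arrays, 10.88, 10.89 and 10.79 against 9.64, 9.86 and 9.73 (log2 change -1.11 ± 0.17 (SE), adjusted p = 0.00533). In the smaller list of anion exchangers, bicarbonate transporters and carbonic anhydrases, 2 of 11 rose, Slc26a7 and Slc4a10, and the median was 0.18 (-0.07 without Fezf2GFP 24 h replicate 1 and 0.33 without Fezf2GFP 24 h replicate 3). The gene lists were written with earlier results of these data known, so their counts here and below are descriptions. Each count stands beside 0.806% of all genes higher, 0.253% lower and 8.85% with an unadjusted p under 0.05 by limma. Centring each array moved the median of all genes to -0.06, and 5 list medians turned below 0 with it (solute carriers, Wnt, retinoic acid and steroid, insulin-like growth factor and neuropeptide genes); 29 of 45 list medians changed sign in at least 1 of 25 alternatives. Slc15a2 and Slc39a8 kept their calls with any 1 array left out. Slc4a10 and Slc24a3 lost their calls in 2 and 5 of the 14 fits (highest adjusted p 0.0708 and 0.14, without Fezf2GFP 24 h replicate 1).

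Several genes of the extracellular matrix rose. Of 90 collagens, laminins, matrix glycoproteins and their enzymes tested, 6 rose and 0 fell, beside 0.806% and 0.253% of all genes. Of the 90, 65 lay above 0 (all genes 56.4%), and the median was 0.26 (0.15 without Fezf2GFP 24 h replicate 1 and 0.42 without Fezf2GFP 24 h replicate 3). Cpxm2, a secreted carboxypeptidase-like protein, read 4.13, 4.27 and 3.82 in the CtrlGFP arrays and 8.80, 7.46 and 7.89 in the Fezf2GFP arrays (log2 change 3.98 ± 0.32 (SE), adjusted p = 8.08e-05). All its Fezf2GFP arrays were over 3 log2 units above the highest control. Col4a4, a collagen chain of basement membranes, read 5.53, 6.40 and 6.40 against 9.76, 8.36 and 8.67 (log2 change 2.82 ± 0.39 (SE), adjusted p = 0.00374), and Col9a1, a chain of a fibril-associated collagen, read 6.96, 6.68 and 6.22 against 8.90, 8.53 and 9.63 (log2 change 2.40 ± 0.29 (SE), adjusted p = 0.00123). Adamts9, a secreted metalloprotease that cuts proteoglycans, went from dim in each control to about 6, 3.79, 3.78 and 3.77 against 6.14, 5.91 and 6.04 (log2 change 2.25 ± 0.40 (SE), adjusted p = 0.0144), at least 4.08-fold higher. Frem2, a partner of Frem1 in the same matrix complex, read 2.55, 3.20 and 2.77 against 4.93, 4.38 and 4.29 and stayed low (log2 change 1.69 ± 0.37 (SE), adjusted p = 0.0477). Hmcn1, the matrix protein hemicentin, is in none of the lists and also rose (log2 change 1.93 ± 0.38 (SE), adjusted p = 0.0254). Cpxm2, Col4a4, Col9a1 and Frem1 kept their calls in each fit without 1 array. Adamts9, Frem2 and Hmcn1 lost their calls in 5, 8 and 5 of the 14 fits (highest adjusted p 0.075, 0.247 and 0.156, without Fezf2GFP 24 h replicate 1).

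Adhesion molecules of the neuronal surface rose in several families. Among 42 cadherins and protocadherins, 3 rose and 0 fell, beside 0.806% and 0.253% of all genes. All 3 were protocadherins of the delta type. Pcdh9 read 8.48, 7.85 and 8.50 against 11.08, 10.73 and 11.38 (log2 change 2.79 ± 0.31 (SE), adjusted p = 0.000761) and Pcdh17 read 8.48, 8.44 and 8.67 against 10.84, 10.84 and 10.67 (log2 change 2.25 ± 0.21 (SE), adjusted p = 0.000359). Pcdh17 had nearly equal values within each group, and its change was more than 10 times its standard error. Pcdh11x, an X-linked member, came up from dim controls, 3.51, 3.54 and 3.74 against 6.69, 5.03 and 5.67 (log2 change 2.20 ± 0.42 (SE), adjusted p = 0.0219). Of 65 immunoglobulin, contactin and synaptic adhesion genes, 4 rose, 1 fell and 49 lay above 0 (75.4%, against 56.4% of all genes). The median was 0.33 (0.52 without Fezf2GFP 24 h replicate 3). Flrt2, a ligand of Unc5 receptors and latrophilins, read 8.86, 10.03 and 9.81 against 11.57, 11.47 and 11.70 (log2 change 2.01 ± 0.30 (SE), adjusted p = 0.00533). Cntn6, a contactin that is also one of the corticospinal genes listed, read 5.41, 5.34 and 5.35 against 7.55, 6.22 and 7.37 (log2 change 1.68 ± 0.36 (SE), adjusted p = 0.044). Cadm3, a cell adhesion protein of axons, read 7.52, 7.63 and 7.48 against 9.80, 8.88 and 8.51 (log2 change 1.52 ± 0.28 (SE), adjusted p = 0.0155), and Tenm1, a teneurin, read 7.25, 7.20 and 6.94 against 8.87, 8.06 and 8.98 (log2 change 1.504 ± 0.29 (SE), adjusted p = 0.0224). Their groups were separate but close, with Fezf2GFP replicate 2 the lowest of its group for Cntn6 and Tenm1. Igsf3 was the member that fell, 10.21, 10.47 and 10.33 against 9.48, 9.39 and 8.71 (log2 change -1.15 ± 0.21 (SE), adjusted p = 0.0155). Pcdh11x, Cntn6 and Tenm1 lost their calls in 5, 11 and 5 of the 14 fits (highest adjusted p 0.0967, 0.238 and 0.129, without Fezf2GFP 24 h replicate 1). Cadm3 lost its call in 3 of the 14 fits (highest adjusted p 0.0701, without CtrlGFP 24 h replicate 3). Another probe set of Cadm3, with a mean level of 8.52, changed by 0.71 and did not pass (adjusted p = 0.707 by limma over all probe sets). Igsf3 lost its call in 3 of the 14 fits (highest adjusted p 0.0865, without CtrlGFP 24 h replicate 2).

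Axon guidance genes that passed all rose. Robo1, a receptor for the Slit repellents, read 9.61, 8.93 and 8.97 in the CtrlGFP arrays and 11.66, 10.96 and 11.05 in the Fezf2GFP arrays (log2 change 2.06 ± 0.27 (SE), adjusted p = 0.0026). Draxin, a secreted guidance cue that binds netrin receptors and also restrains Wnt signalling, read 10.10, 10.21 and 9.94 against 11.35, 11.22 and 10.96 (log2 change 1.10 ± 0.21 (SE), adjusted p = 0.0211). With Flrt2, these made 3 rises among the 21 tested Slit, Robo and netrin genes, beside 0.806% of all genes. The median of that list was 0.21 (0.12 without CtrlGFP 24 h replicate 1). It turned to -0.11 when the trend with gene length was removed. Efna3, an ephrin ligand held in the membrane by a lipid anchor, was the 1 that rose of 14 ephrins and Eph receptors, 6.07, 6.34 and 5.91 against 8.21, 7.58 and 7.94 (log2 change 1.80 ± 0.24 (SE), adjusted p = 0.0026). Ephb1, an Eph receptor chosen by name, read 8.54, 7.63 and 7.58 against 9.46, 7.84 and 7.96; its groups overlapped (log2 change 0.50 ± 0.41 (SE), adjusted p = 0.726). Sema3d, a secreted semaphorin, was the 1 of 32 semaphorin, plexin and neuropilin genes to rise, and it stayed low, 3.69, 3.57 and 3.50 against 4.57, 4.21 and 4.66 (log2 change 0.89 ± 0.16 (SE), adjusted p = 0.0142). Robo1 and Efna3 kept their calls in all 26 alternative fits. Draxin and Sema3d lost their calls in 5 and 4 of the 14 fits (highest adjusted p 0.122 and 0.0791, without Fezf2GFP 24 h replicate 1).

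Genes of synapses and excitability rose in small numbers. Shisa6, an auxiliary protein of AMPA receptors, read 4.01, 3.96 and 3.78 in the CtrlGFP arrays and 6.90, 6.43 and 6.91 in the Fezf2GFP arrays (log2 change 2.83 ± 0.45 (SE), adjusted p = 0.0079) and kept its call in all 26 alternative fits. Dlg2, a scaffold protein of the postsynaptic density, read 2.61, 3.596 and 4.60 against 6.71, 5.66 and 5.83 (log2 change 2.47 ± 0.50 (SE), adjusted p = 0.0303), and Gria1, an AMPA receptor subunit, read 5.15, 4.22 and 3.56 against 7.88, 5.46 and 6.72 (log2 change 2.38 ± 0.52 (SE), adjusted p = 0.0498). Both were widely spread within groups: Fezf2GFP replicate 2 lay only a little above CtrlGFP replicate 1 for Gria1. With Shisa6 these were the 3 rises among 38 glutamate receptor genes and partners, beside 0.806% of all genes. Of the 38, 30 lay above 0 (78.9%, against 56.4% of all genes), with a median of 0.48 (0.27 without Fezf2GFP 24 h replicate 1). Dlg2 has another, dimmer probe set whose change was -0.18. Kcnc2, a fast delayed-rectifier potassium channel, read 6.64, 8.02 and 7.90 against 9.87, 9.61 and 9.51 (log2 change 2.14 ± 0.34 (SE), adjusted p = 0.00733) and was the 1 rise of 27 potassium channel genes. Cacna1h, a T-type calcium channel, read 3.59, 5.13 and 4.89 against 7.74, 6.93 and 5.73 (log2 change 2.27 ± 0.47 (SE), adjusted p = 0.0377), the 1 rise of 30 sodium, calcium and HCN channel genes. In the vesicle list of 63 genes the pair that passed went opposite ways: Cplx2, a complexin that controls vesicle fusion, read 8.48, 8.39 and 8.67 against 9.88, 9.76 and 9.65 (log2 change 1.25 ± 0.24 (SE), adjusted p = 0.0224), and Syn2, a synapsin on the vesicle surface, read 9.66, 10.19 and 9.45 against 8.70, 8.81 and 8.41 (log2 change -1.13 ± 0.21 (SE), adjusted p = 0.0213). Shisa6 and Kcnc2 kept their calls with 1 array left out. Dlg2, Gria1, Cacna1h and Cplx2 lost their calls in 5, 11, 11 and 6 of the 14 fits (highest adjusted p 0.183, 0.214, 0.194 and 0.118, without Fezf2GFP 24 h replicate 1). Syn2 lost its call in 3 of the 14 fits (highest adjusted p 0.1, without Fezf2GFP 24 h replicate 3).

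Some kinases and regulators of cyclic nucleotide and G protein signalling passed, in both directions; apart from the Rgs genes they were put together after their values were seen. Prkg2, the membrane-bound kinase activated by cyclic GMP, read 3.76, 3.94 and 3.55 in the CtrlGFP arrays and 6.997, 7.44 and 7.10 in the Fezf2GFP arrays. All control arrays were dim and the rise was at least 9.07-fold (log2 change 3.43 ± 0.37 (SE), adjusted p = 0.000599). Its relative Prkg1 also rose (log2 change 1.62 ± 0.32 (SE), adjusted p = 0.0246), as did Pkib, an inhibitor of the cyclic AMP-dependent kinase (log2 change 2.30 ± 0.39 (SE), adjusted p = 0.0107). Rgs8, which speeds the shut-off of G proteins, read 5.11, 5.96 and 5.85 against 8.56, 8.21 and 8.11 (log2 change 2.66 ± 0.38 (SE), adjusted p = 0.00414) and was the 1 rise of 12 Rgs genes. Gnaz, the alpha subunit of an inhibitory G protein, rose (log2 change 2.53 ± 0.34 (SE), adjusted p = 0.00307), and so did Plcb4, a phospholipase that G proteins activate (log2 change 0.86 ± 0.17 (SE), adjusted p = 0.0319). Camk2n1, an inhibitor of the calcium and calmodulin-dependent kinase CaMKII, rose by 2.12, and Akap12, a scaffold for kinases, by 1.65. Hpca, the calcium sensor hippocalcin, fell (log2 change -1.43 ± 0.25 (SE), adjusted p = 0.0119), and Prkcb, a calcium-dependent protein kinase C, fell as well (log2 change -1.48 ± 0.28 (SE), adjusted p = 0.019). Prkg2, Rgs8 and Gnaz kept their calls with any 1 array left out. Prkg1 lost its call in 5 of the 14 fits (highest adjusted p 0.0994, without CtrlGFP 24 h replicate 1). Pkib and Akap12 lost their calls in 1 and 6 of the 14 fits (highest adjusted p 0.0568 and 0.11, without CtrlGFP 24 h replicate 2). Plcb4 and Prkcb lost their calls in 7 and 6 of the 14 fits (highest adjusted p 0.145 and 0.0845, without Fezf2GFP 24 h replicate 3). Camk2n1 and Hpca lost their calls in 1 and 2 of the 14 fits (highest adjusted p 0.0585 and 0.0592, without Fezf2GFP 24 h replicate 1).

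Among neuropeptides and their receptors, a ligand and its receptor moved in opposite directions. Adcyap1, the gene of the peptide PACAP, came up from dim controls, 3.81, 3.57 and 3.38 against 6.04, 5.45 and 6.40 (log2 change 2.38 ± 0.43 (SE), adjusted p = 0.0155). Adcyap1r1, which encodes the PACAP receptor PAC1, read 10.09, 10.69 and 10.64 in the CtrlGFP arrays and 8.53, 8.76 and 8.76 in the Fezf2GFP arrays. Each of its Fezf2GFP arrays lay more than 1 log2 unit below the lowest control (log2 change -1.79 ± 0.27 (SE), adjusted p = 0.00533). Trhr, the receptor of thyrotropin-releasing hormone, read 3.14, 2.93 and 2.89 against 4.84, 4.72 and 6.97, a rise that was largest in Fezf2GFP replicate 3 (log2 change 2.53 ± 0.50 (SE), adjusted p = 0.0261). These were the 3 passing members, 2 higher and 1 lower, of 36 tested in the list, whose median was 0.05 (0.01 without CtrlGFP 24 h replicate 1 and 0.12 without CtrlGFP 24 h replicate 2). Gcg, annotated as the glucagon precursor and not in that list, rose from moderate levels, 7.98, 7.37 and 7.17 against 9.98, 9.47 and 10.14 (log2 change 2.36 ± 0.38 (SE), adjusted p = 0.00744). Adcyap1r1 and Gcg kept their calls in all 26 alternative fits. Adcyap1 lost its call in 4 of the 14 fits (highest adjusted p 0.0787, without Fezf2GFP 24 h replicate 3). Trhr lost its call in 3 of the 14 fits (highest adjusted p 0.104, without CtrlGFP 24 h replicate 2). With dim arrays counted at 4, the rises of Adcyap1 and Trhr are at least 3.90- and 2.85-fold.

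A few genes of growth factor pathways rose. Gfra1, the co-receptor that binds GDNF, read 4.82, 5.34 and 5.78 in the CtrlGFP arrays and 7.96, 9.27 and 8.20 in the Fezf2GFP arrays (log2 change 3.16 ± 0.54 (SE), adjusted p = 0.0114). Ghr and Stat3 were chosen after their values were seen. Ghr, the growth hormone receptor, rose (log2 change 1.72 ± 0.28 (SE), adjusted p = 0.00939), and so did Stat3, a transcription factor that cytokine receptors activate (log2 change 2.34 ± 0.42 (SE), adjusted p = 0.0142). Of 24 FGF and MAPK feedback genes, 3 rose and 0 fell, beside 0.806% and 0.253% of all genes. Their median was 0.35 (0.20 without CtrlGFP 24 h replicate 1). Dusp6, a phosphatase that inactivates ERK, read 5.56, 4.77 and 5.16 against 7.36, 6.995 and 7.24 (log2 change 2.04 ± 0.44 (SE), adjusted p = 0.048), and Dusp4, another phosphatase of MAP kinases, read 9.04, 10.16 and 9.68 against 11.61, 11.06 and 11.64 (log2 change 1.81 ± 0.35 (SE), adjusted p = 0.0254); the remaining member was Flrt2. Ghr kept its call with any 1 array left out. Gfra1 lost its call in 2 of the 14 fits (highest adjusted p 0.0526, without CtrlGFP 24 h replicate 2). Stat3, Dusp6 and Dusp4 lost their calls in 3, 10 and 4 of the 14 fits (highest adjusted p 0.0839, 0.214 and 0.134, without Fezf2GFP 24 h replicate 1).

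In the Wnt pathway the gene for ligand secretion rose while a receptor and 2 modulators fell. Wls, which escorts Wnt ligands out of the secreting cell, read 4.003, 3.83 and 3.88 in the CtrlGFP arrays and 8.30, 7.82 and 7.40 in the Fezf2GFP arrays (log2 change 3.94 ± 0.62 (SE), adjusted p = 0.00744). Fzd8, a Frizzled receptor, read 11.61, 11.22 and 11.16 in the CtrlGFP arrays and 9.19, 9.98 and 9.71 in the Fezf2GFP arrays (log2 change -1.70 ± 0.26 (SE), adjusted p = 0.00626). Both kept their calls with any 1 array left out. Shisa2, which holds back Frizzled and FGF receptors in the endoplasmic reticulum, read 11.78, 12.19 and 12.24 against 9.74, 10.87 and 10.92 (log2 change -1.56 ± 0.33 (SE), adjusted p = 0.044), and a second probe set of it also passed at -2.18. Axin2, a scaffold of the complex that degrades beta-catenin and a common Wnt target, read 7.35, 6.92 and 6.72 against 6.33, 6.15 and 6.04 (log2 change -0.83 ± 0.18 (SE), adjusted p = 0.0468). With Draxin the list had 2 rises and 3 falls among 39 tested, beside 0.806% and 0.253% of all genes. Its median was 0.09 (0.04 without Fezf2GFP 24 h replicate 1 and 0.16 without CtrlGFP 24 h replicate 3). Shisa2 lost its call in 11 of the 14 fits (highest adjusted p 0.188, without Fezf2GFP 24 h replicate 1). Axin2 lost its call in 11 of the 14 fits (highest adjusted p 0.169, without Fezf2GFP 24 h replicate 3).

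Several metabolic enzymes rose, among them 3 that act on lipids. Hpgd, which breaks down prostaglandins, read 3.71, 3.29 and 3.34 in the CtrlGFP arrays and 8.17, 7.48 and 7.30 in the Fezf2GFP arrays, at least 12.6-fold higher (log2 change 4.20 ± 0.69 (SE), adjusted p = 0.00959). Cyp7b1, a hydroxylase of oxysterols and steroids, read 4.39, 6.43 and 5.87 in the CtrlGFP arrays and 9.62, 8.89 and 9.06 in the Fezf2GFP arrays (log2 change 3.63 ± 0.63 (SE), adjusted p = 0.0126). They were the 2 rises among 26 retinoic acid, prostaglandin and steroid genes, and 0 fell. Elovl7, which lengthens long-chain fatty acids, read 5.48, 5.61 and 5.82 against 8.29, 8.48 and 8.66 (log2 change 2.84 ± 0.48 (SE), adjusted p = 0.0106) and was the 1 rise of 43 sterol and fatty acid synthesis genes, in which Srebf1 was the 1 fall. The median of that list was 0.14 (0.25 without Fezf2GFP 24 h replicate 3). Fabp3, a fatty acid carrier (2.18, adjusted p = 0.0351), Dpyd, which degrades pyrimidines (2.75, adjusted p = 0.0107), and Man1a, a mannosidase of the Golgi (2.33, adjusted p = 0.00958), rose too, the first number being the log2 change. Hpgd, Cyp7b1 and Man1a lost their calls in 2, 1 and 2 of the 14 fits (highest adjusted p 0.0579, 0.0728 and 0.0579, without Fezf2GFP 24 h replicate 1). Elovl7 lost its call in 1 of the 14 fits (highest adjusted p 0.0509, without CtrlGFP 24 h replicate 2). Fabp3 lost its call in 8 of the 14 fits (highest adjusted p 0.14, without CtrlGFP 24 h replicate 3). Dpyd lost its call in 2 of the 14 fits (highest adjusted p 0.0545, without Fezf2GFP 24 h replicate 3).

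Other transcription regulators passed singly. Uncx rose and Zfhx4 fell among 37 homeobox genes of other regions and fates, and of 179 members of other transcription factor families 0 passed. By limma, 22 of them had an unadjusted p under 0.05 (12.3%, against 8.85% of all genes tested). Their smallest p belonged to Runx1t1, a corepressor, which read 8.83, 10.04 and 9.65 against 11.89, 10.85 and 11.10 without overlap (log2 change 1.77 ± 0.44 (SE), adjusted p = 0.0862). Arid5b, a DNA-binding chromatin cofactor, read 6.95, 8.74 and 8.48 against 10.37, 10.33 and 10.13 (log2 change 2.22 ± 0.38 (SE), adjusted p = 0.0109), and Hdac9, a class IIa histone deacetylase, read 10.67, 11.10 and 11.21 against 9.58, 9.99 and 9.10 (log2 change -1.44 ± 0.26 (SE), adjusted p = 0.0143), the 1 rise and the 1 fall of 120 chromatin genes. Hif3a, a member of the hypoxia-inducible factor family (1.88, adjusted p = 0.00123), Jazf1, a zinc finger cofactor (2.04, adjusted p = 0.00414), Dach2, a dachshund family factor (2.26, adjusted p = 0.0135), Hivep2, a zinc finger factor (1.24, adjusted p = 0.0142), and Ppargc1a, a coactivator of mitochondrial genes (1.61, adjusted p = 0.0246), also rose. Hif3a and Jazf1 kept their calls in all 26 alternative fits. Arid5b and Ppargc1a lost their calls in 1 and 4 of the 14 fits (highest adjusted p 0.0579 and 0.148, without Fezf2GFP 24 h replicate 1). Hdac9 and Hivep2 lost their calls in 4 and 4 of the 14 fits (highest adjusted p 0.0746 and 0.0804, without CtrlGFP 24 h replicate 2). Dach2 lost its call in 4 of the 14 fits (highest adjusted p 0.0665, without Fezf2GFP 24 h replicate 3). Its control arrays were all dim, and its rise is at least 3.10-fold.

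The remaining genes with the largest changes have less settled roles here. Caps2, related to the calcium-binding protein calcyphosine, read 4.503, 4.52 and 4.41 in the CtrlGFP arrays and 8.07, 7.53 and 7.85 in the Fezf2GFP arrays and had the smallest standard error of the 12 rises of largest fitted difference (log2 change 3.34 ± 0.25 (SE), adjusted p = 7.33e-05). Vstm2a, a secreted immunoglobulin-domain protein, read 4.37, 6.15 and 7.37 against 10.12, 9.01 and 9.11 (log2 change 3.45 ± 0.67 (SE), adjusted p = 0.0237), with CtrlGFP replicate 1 again the lowest. Tppp3, a tubulin-binding protein (2.999, adjusted p = 0.0142), Hspb8, a small heat shock protein (2.98, adjusted p = 0.0107), and Pdlim3, an actin-associated protein (2.84, adjusted p = 0.032), rose from controls that were all dim. On the falling side, Btbd17, a BTB-domain protein, read 8.39, 7.66 and 8.31 in the CtrlGFP arrays and 5.88, 5.87 and 5.87 in the Fezf2GFP arrays; its Fezf2GFP arrays were nearly identical (log2 change -2.25 ± 0.23 (SE), adjusted p = 0.000463). Klhl35, a kelch-like protein, read 5.87, 5.85 and 5.79 against 4.60, 3.93 and 3.08 (log2 change -1.97 ± 0.35 (SE), adjusted p = 0.0144), and the uncharacterised transcript 2210408K08Rik read 8.63, 9.27 and 9.01 against 7.23, 7.08 and 6.96 (log2 change -1.88 ± 0.19 (SE), adjusted p = 0.000463). Plaat3, a phospholipase and acyltransferase, read 8.92, 7.67 and 7.85 against 6.38, 6.70 and 6.33 (log2 change -1.68 ± 0.36 (SE), adjusted p = 0.044). Pax6os1, an antisense transcript of the Pax6 locus, fell (log2 change -1.20 ± 0.26 (SE), adjusted p = 0.044) while Pax6 itself changed by 0.18 with overlapping groups. Caps2, Btbd17 and 2210408K08Rik kept their calls with any 1 array left out. Vstm2a, Hspb8, Plaat3 and Pax6os1 lost their calls in 5, 2, 11 and 11 of the 14 fits (highest adjusted p 0.138, 0.058, 0.191 and 0.212, without Fezf2GFP 24 h replicate 1). Tppp3, Pdlim3 and Klhl35 lost their calls in 3, 6 and 4 of the 14 fits (highest adjusted p 0.0793, 0.115 and 0.0661, without CtrlGFP 24 h replicate 2).

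The rest of the 109 ran to smaller values. Over 2 on the log2 scale stood the rises of Hspa12a (2.58), Parm1 (2.32), C630043F03Rik (2.29), A530058N18Rik (2.26) and Tmem47 (2.25). Lin7a, Psd2, Plekhg1, Tmem163, Trim5, Abcc4, Exoc6, Dapp1, Dzank1, Dnajc12, Sec24d, BC034090 and Agap1 rose by 1.27 to 1.84 by fitted difference, and Rnf182 by 0.92. The control arrays of Trim5, Abcc4 and BC034090 were all dim, and with dim arrays counted at 4 their rises are at least 2.01-, 1.56- and 1.69-fold. Exoc6 has another probe set with a change of -0.07. Ptgfrn, 1110015O18Rik, Sipa1l2, Lrrc8c and Tacc2 fell by 1.07 to 1.48. Over all 109 genes, 35 had other probe sets above the dim level, 49 in number, of which 47 changed in the same direction and 13 passed. The genes that rose were long: the median genomic span was 101 kb for the rises and 50 kb for the falls, against 25.3 kb for the genes tested, and span and change correlated across genes at a Spearman rho of 0.269, a description over 10268 genes that share the same arrays. With that trend removed 109 genes passed, of which 91 were among the 109 above. A530058N18Rik, BC034090 and Tacc2 lost their calls in 3, 5 and 4 of the 14 fits (highest adjusted p 0.0661, 0.109 and 0.12, without CtrlGFP 24 h replicate 2). Tmem47, Lin7a, Tmem163, Exoc6, Dapp1, Dnajc12, Sec24d, Agap1 and Rnf182 lost their calls in 3, 1, 10, 13, 9, 9, 4, 10 and 13 of the 14 fits (highest adjusted p 0.0774, 0.0717, 0.212, 0.244, 0.183, 0.166, 0.159, 0.212 and 0.204, without Fezf2GFP 24 h replicate 1). Ptgfrn and 1110015O18Rik lost their calls in 4 and 3 of the 14 fits (highest adjusted p 0.0798 and 0.0695, without Fezf2GFP 24 h replicate 3).

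**Figure D2:**
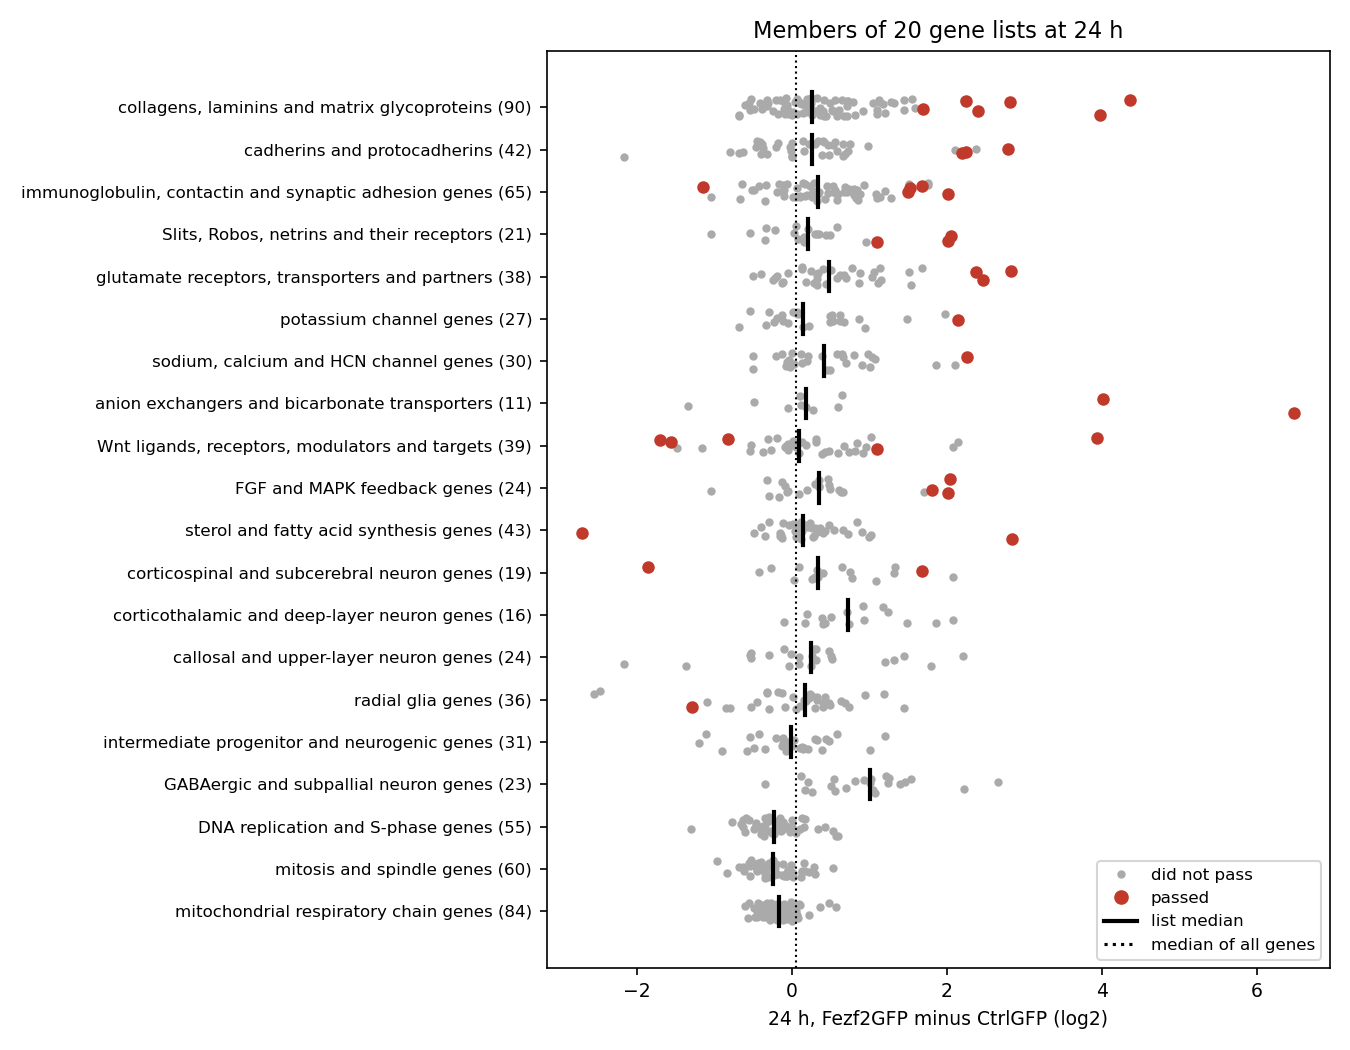
The plot shows the log2 change at 24 h (horizontal axis, Fezf2GFP minus CtrlGFP) of each tested member of selected gene lists, with the number tested in brackets; red points passed, grey points did not, black bars are list medians and the dotted line is the median of all genes, 0.06. The mitosis and S-phase lists lie left of the dotted line with medians of -0.24. The GABAergic list lies right of it at 1.01 (0.20 without Fezf2GFP 24 h replicate 1) with no passing member, while its summed level was lower in Fezf2GFP.

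The lists of corticospinal, corticothalamic and callosal neuron genes held 2 calls, both in the first, where 1.06% of all genes passed. Of 19 corticospinal and subcerebral genes, 1 rose (Cntn6) and 1 fell (Fezf2), 16 lay above 0 and the median was 0.34. Bcl11b, the zinc finger factor of corticospinal neurons also called Ctip2, read 11.58, 12.78 and 12.94 in the CtrlGFP arrays and 13.48, 13.50 and 13.56 in the Fezf2GFP arrays. All Fezf2GFP arrays were above all controls, and the change did not pass (log2 change 1.08 ± 0.34 (SE), adjusted p = 0.215). Crym, a corticospinal marker, read 4.82, 3.84 and 3.79 against 8.47, 4.76 and 5.45; only Fezf2GFP replicate 1 was clearly raised (log2 change 2.08 ± 0.87 (SE), adjusted p = 0.476). Of 16 corticothalamic and deep-layer genes, 0 passed (7 at an unadjusted p under 0.05), 15 lay above 0 and 7 had all Fezf2GFP arrays above all controls (43.8%, against 12.6% of all genes); the median was 0.73. In this list Thsd7b read 7.16, 6.67 and 6.74 against 9.15, 7.95 and 7.94 (log2 change 1.49 ± 0.41 (SE), adjusted p = 0.141) and Foxp2, a forkhead factor of deep layers, read 9.93, 10.26 and 10.94 against 11.46, 11.53 and 11.66 (log2 change 1.17 ± 0.34 (SE), adjusted p = 0.165). Tbr1, a T-box factor of layer VI neurons, overlapped between the groups (log2 change 0.39 ± 0.42 (SE), adjusted p = 0.781). Of 24 callosal and upper-layer genes 0 passed (7 at an unadjusted p under 0.05) and 15 lay above 0. All Fezf2GFP arrays lay above all controls for 7 of them (29.2%, against 12.6% of all genes). They lay below all controls for 3 of the 24, against 7% of all genes. The share of the list was thus above that of all genes in both directions. The median was 0.25 (-0.01 without CtrlGFP 24 h replicate 1). Cdh8, a cadherin of that list, read 9.78, 11.38 and 11.70 against 8.62, 8.88 and 8.85 (log2 change -2.17 ± 0.50 (SE), adjusted p = 0.0657), and Cux2, an upper-layer homeobox factor, read 11.18, 11.74 and 11.99 against 11.61, 11.27 and 11.15 (log2 change -0.29 ± 0.32 (SE), adjusted p = 0.779).

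**Figure D3:**
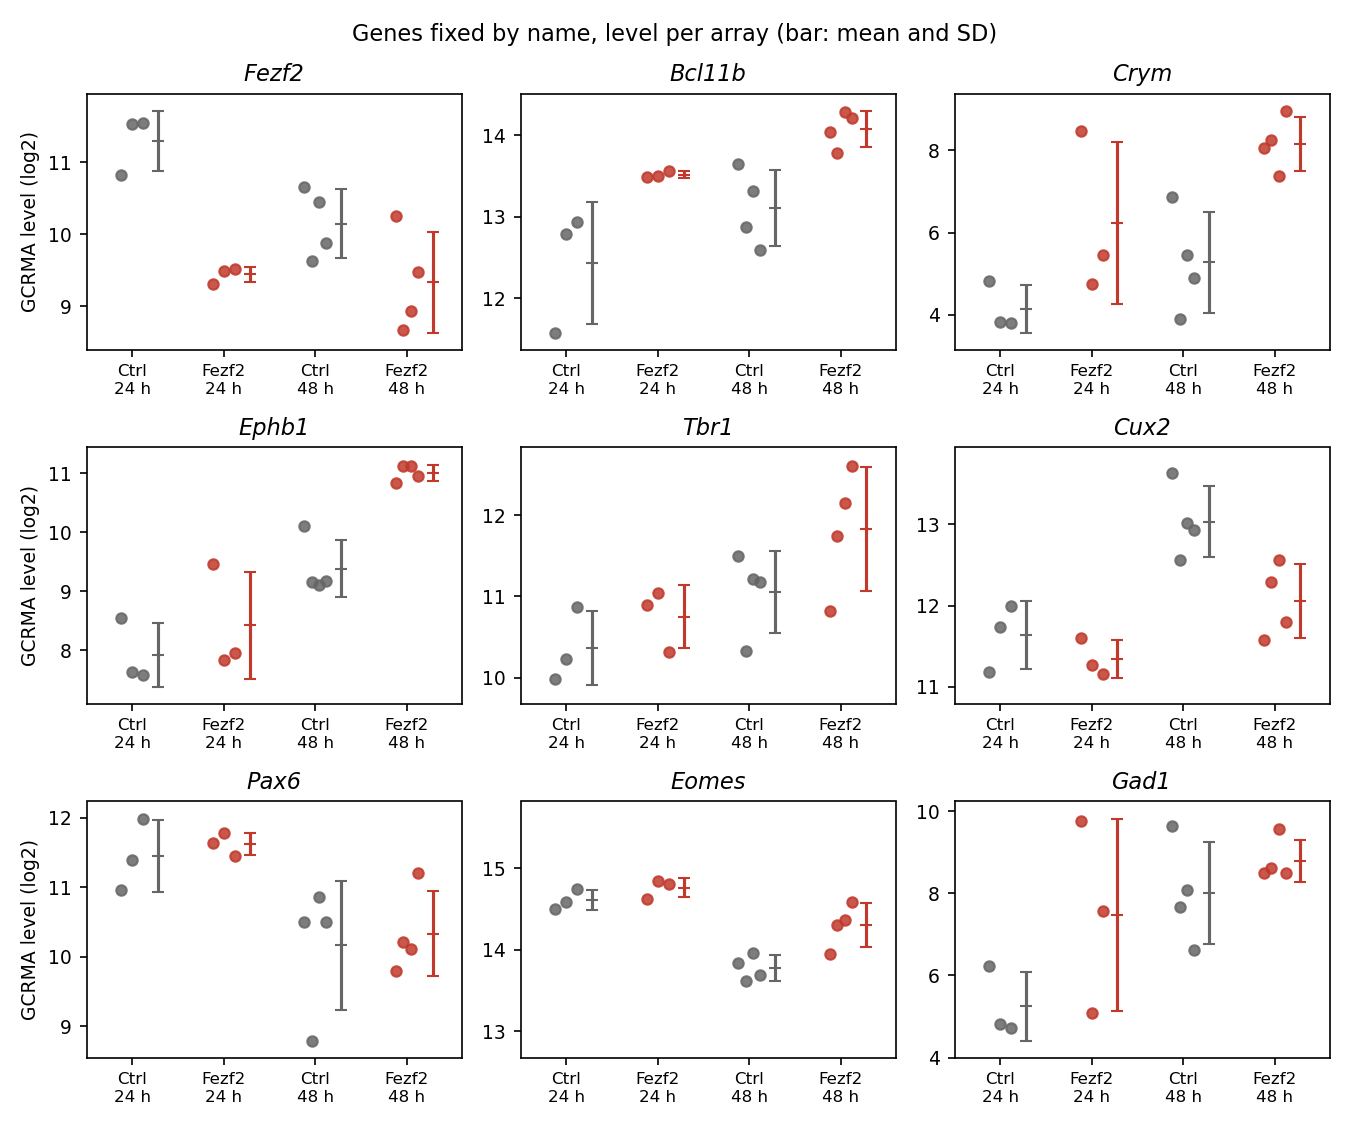
Each panel gives the GCRMA level (log2, vertical axis) of 1 gene fixed by name in each of the 14 arrays, grey for CtrlGFP and red for Fezf2GFP at 24 h (n = 3 each) and 48 h (n = 4 each), with the mean and SD beside the points; axes do not start at 0 and differ between panels. Bcl11b lies higher in the 3 Fezf2GFP arrays at 24 h (13.48 to 13.56) than in the controls (11.58 to 12.94), while Fezf2 lies lower. The change in Bcl11b did not pass, and its lowest control was CtrlGFP 24 h replicate 1.

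Among progenitor genes 1 passed, a radial glia gene. Of 36 radial glia genes, 0 rose and 1 fell, and 8 had an unadjusted p under 0.05 (22.2%, against 8.85% of all genes). All Fezf2GFP arrays lay below all controls for 11 of them (30.6%, against 7% of all genes) and above for 7 (19.4%, against 12.6%). The median was 0.17 (0.08 without CtrlGFP 24 h replicate 2). The one that fell was Mfge8, a secreted glycoprotein of radial glia, 12.08, 11.40 and 11.35 against 10.61, 10.19 and 10.16 (log2 change -1.29 ± 0.27 (SE), adjusted p = 0.0377). Pax6 read 10.96, 11.39 and 11.99 against 11.64, 11.78 and 11.45 and Eomes 14.497, 14.59 and 14.75 against 14.63, 14.85 and 14.81, with overlapping groups for both. Of 31 intermediate progenitor and neurogenic genes 0 passed (5 at an unadjusted p under 0.05), and the median was -0.01 (-0.12 without CtrlGFP 24 h replicate 1 and 0.08 without CtrlGFP 24 h replicate 3). Gadd45g, a growth arrest gene, read 13.34, 13.01 and 13.03 against 11.74, 11.88 and 12.15 (log2 change -1.20 ± 0.29 (SE), adjusted p = 0.0774). Of 29 Notch genes 0 passed (3 at an unadjusted p under 0.05) and the median was -0.00145 (-0.03 without Fezf2GFP 24 h replicate 1 and 0.06 without Fezf2GFP 24 h replicate 2). The smallest p among them was that of Jag1, a Notch ligand, 8.74, 9.06 and 9.01 against 7.75, 7.95 and 7.15 (log2 change -1.32 ± 0.33 (SE), adjusted p = 0.0842). Gli2, a hedgehog effector, lay just outside the threshold, 12.03, 11.85 and 11.63 against 10.95, 11.05 and 10.94 (log2 change -0.86 ± 0.19 (SE), adjusted p = 0.0513), and 0 of 11 hedgehog genes passed (2 at an unadjusted p under 0.05). Of 28 BMP, TGF-beta and activin genes 0 passed (5 unadjusted), and of 17 insulin-like growth factor genes 0 passed (2 unadjusted); Fstl5 changed by 0.88, adjusted p = 0.184, and Stc1 by -1.24, adjusted p = 0.0669. Of 41 immature neuron genes 0 passed (8 unadjusted), 29 lay above 0 and the median was 0.22 (0.12 without CtrlGFP 24 h replicate 1). Stmn2, a microtubule regulator of growing axons, read 9.07, 9.96 and 10.07 against 11.82, 11.003 and 11.58 (log2 change 1.77 ± 0.47 (SE), adjusted p = 0.114). Of 12 GABA, glycine, acetylcholine and monoamine receptor genes 0 passed (3 unadjusted), and Glra2, a glycine receptor subunit, changed by 2.59, adjusted p = 0.104. Mfge8 lost its call in 9 of the 14 fits (highest adjusted p 0.145, without Fezf2GFP 24 h replicate 3).

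Most cell cycle genes lay below 0 without passing, and by the median of each list the level was clearly lower only in Fezf2GFP replicates 1 and 2. The median deviation of the S-phase genes from their mean over the 6 arrays was -0.29, -0.16 and 0.15 in the Fezf2GFP arrays and 0.15, 0.06 and 0.09 in the controls. For the mitosis genes it was -0.25, -0.15 and 0.04 against 0.17, 0.04 and 0.11. By these medians Fezf2GFP replicate 3 was at or near the level of the controls in both lists. The summed level of the mitosis list was 17.35 to 17.55 in Fezf2GFP against 17.62 to 17.84 in CtrlGFP, so by this measure replicate 3 was lower too. The S-phase sums overlapped, 17.28 to 17.71 against 17.65 to 17.72. Of 60 mitosis and spindle genes 0 passed (3 at an unadjusted p under 0.05), 49 lay below 0 and 20 had all Fezf2GFP arrays below all controls (33.3%, against 7% of all genes); the median of -0.24 ran from -0.35 with median centring to -0.16 without Fezf2GFP 24 h replicate 1 over 25 alternatives. Of 55 DNA replication and S-phase genes 0 passed, and 6 had an unadjusted p under 0.05 by limma (10.9%, against 8.85% of all genes). Of the 55, 43 lay below 0 and 11 had all Fezf2GFP arrays below all controls (20%, against 7% of all genes). The S-phase median was -0.24 (-0.37 without Fezf2GFP 24 h replicate 3 and -0.15 without Fezf2GFP 24 h replicate 1). Kif2c, a spindle kinesin, read 12.57, 12.46 and 12.33 against 11.89, 11.84 and 11.99 (log2 change -0.55 ± 0.24 (SE), adjusted p = 0.508), and E2f7, a repressor of the E2F family, read 10.71, 10.43 and 10.41 against 9.48, 9.81 and 9.94 (log2 change -0.77 ± 0.19 (SE), adjusted p = 0.0805). In the list of cell cycle inhibitors and p53 response genes, 1 of 26 rose and 1 fell. Cdkn1c, the cyclin-dependent kinase inhibitor p57, read 8.84, 9.88 and 10.002 in the CtrlGFP arrays and 12.60, 11.82 and 12.30 in the Fezf2GFP arrays (log2 change 2.66 ± 0.39 (SE), adjusted p = 0.00506). It was high in the controls and higher still in each Fezf2GFP array. Sesn1, a stress-response gene that p53 activates, read 13.34, 13.14 and 13.47 against 12.20, 12.22 and 11.83 (log2 change -1.23 ± 0.17 (SE), adjusted p = 0.00332). Both kept their calls with any 1 array left out.

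Transcripts of other cell types varied between single arrays in some lists, and in others the summed levels of the groups did not overlap. In bulk RNA of this kind, fewer cells of a type and less RNA per cell cannot be told apart. Of 23 GABAergic and subpallial genes 0 passed (6 at an unadjusted p under 0.05) and 22 lay above 0, with a median of 1.01 (0.20 without Fezf2GFP 24 h replicate 1). Gad1, an enzyme of GABA synthesis, read 6.22, 4.81 and 4.72 against 9.77, 5.09 and 7.57, high in Fezf2GFP replicates 1 and 3 and at the level of the controls in replicate 2 (log2 change 2.22 ± 0.96 (SE), adjusted p = 0.508). The summed level of the list (log2 of the sum of the linear values) ran from 14.83 to 14.96 in CtrlGFP and from 14.66 to 14.80 in Fezf2GFP. By this measure the list was lower in Fezf2GFP, the opposite direction to its median. Nkx2-1, Lhx8, Gsx1, Gsx2, Dlx6, Npas1, Htr3a and Calb2 were dim in all 6 arrays. Of 12 oligodendrocyte and astrocyte genes 0 passed (4 unadjusted), 11 lay above 0 and the median was 0.57 (0.22 without Fezf2GFP 24 h replicate 1). Their summed level ran from 12.25 to 12.56 against 12.83 to 13.53; Sox10, Cspg4, Gfap, Mag and S100b were among the 8 dim in all 6. For 10 Cajal-Retzius and subplate genes these values were 0 passed (4 unadjusted), 8 above 0, a median of 0.77 and 12.12 to 12.53 against 12.64 to 12.95, with Trp73 and Ndnf among the dim. Blood and choroid plexus transcripts stood out in single arrays. Hbb-y, an embryonic globin, read 13.78, 4.78 and 4.45 against 4.86, 3.06 and 9.96, and the summed level of the blood and microglia list ran from 8.10 to 13.84 against 7.87 to 10.48; C1qa, Csf1r, Cx3cr1 and Aif1 were dim in all 6. Ttr, the choroid plexus transthyretin, read 2.79, 2.63 and 2.58 against 2.63, 2.58 and 9.95, so only Fezf2GFP replicate 3 carried it; the summed level of its list was 7.60 to 7.96 against 7.79 to 10.19, with Folr1, Kl, Aqp1 and Otx2 dim throughout. In the endothelial, pericyte and meningeal list 0 of 6 passed. The blood and microglia list and the choroid plexus list had 0 of 4 each, and 0 members of these 3 lists had an unadjusted p under 0.05 by limma. For the endothelial list the sums were 9.02 to 10.59 against 8.88 to 10.64, and Pecam1, Kdr, Cdh5 and Tek were dim throughout. The part of such cells in the 109 calls was not tested.

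Stress and housekeeping lists had 0 passing members. Of 28 interferon-induced and MHC class I genes 0 passed, also at an unadjusted p under 0.05, and the median was -0.15 (-0.44 without Fezf2GFP 24 h replicate 3 and 0.19 without CtrlGFP 24 h replicate 1). Of 24 immediate early and heat shock genes 0 passed (4 unadjusted), 19 lay above 0 and the median was 0.27 (0.17 without CtrlGFP 24 h replicate 1). Fos, an immediate early factor, read 6.82, 8.13 and 8.03 against 8.99, 8.57 and 8.88 (log2 change 1.15 ± 0.36 (SE), adjusted p = 0.231). Ribosomal protein genes (44 tested, median -0.09) and respiratory chain genes (84 tested, median -0.17) had 0 passing members by either p in limma, and both medians turned positive without CtrlGFP 24 h replicate 1, to 0.03 and 0.06.

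The 48 h arrays, which share no sample with the 24 h arrays but enter the same fit and estimate of spread, gave a separate measurement of the 109 genes. Of the 83 rises, 80 changed in the same direction at 48 h (96.4%; 57.3% of all genes lay above 0), 53 had all 4 Fezf2GFP arrays above all 4 controls (63.9%, against 7.35% of all genes) and 42 rose at 48 h (50.6%, against 2.70% of all genes). Of the 26 falls, 22 lay below 0, 9 had all Fezf2GFP arrays below all controls (34.6%, against 1.72%) and 9 fell (34.6%, against 0.427%). None passed in the opposite direction. The 51 genes that passed at both times were 46.8% of the 109 and 15.8% of the 322 that passed at 48 h (3.13% of the genes tested). The changes were smaller at 48 h for 71 of the 83 rises and 23 of the 26 falls: the median went from 2.24 to 1.21 for the rises and from -1.47 to -0.36 for the falls, and it was 0.06 at both times over all genes. The 24 h values chose these genes, so their sizes at the 2 times are a description and no test of a decline.

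Some genes were as high or higher at 48 h. Caps2 read 4.37, 4.38, 4.43 and 4.64 in the CtrlGFP arrays and 8.36, 7.21, 7.64 and 7.37 in the Fezf2GFP arrays at 48 h and its change was 3.19 ± 0.22 (SE), adjusted p = 7.62e-06, close to that at 24 h. Rgs8 went from a change of 2.66 at 24 h to 4.74 at 48 h, and Parm1, a mucin-like membrane protein, from 2.32 to 5.09. Elovl7, Shisa6 and Hmcn1 also had larger values at 48 h (4.04, 3.98 and 3.46). None of these 6 differences between the times passed the test of the difference. Among the falls, Rai2, Srebf1, Zfhx4, Btbd17, Klhl35, Adcyap1r1, Shisa2, Sesn1 and Igsf3 fell again at 48 h, by 0.81 for Igsf3 up to 2.73 for Zfhx4.

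The test of the difference between the effects at 48 h and 24 h passed for 10 genes (0.0971%), 5 of them among the 109. Cpxm2 was close to the dim level in 3 of its 4 Fezf2GFP arrays at 48 h: it read 3.40, 3.69, 3.57 and 3.24 in the CtrlGFP arrays and 4.22, 4.22, 4.21 and 5.10 in the Fezf2GFP arrays, each still above each control, and its effect differed from that at 24 h by -3.02 ± 0.43 (SE), adjusted p = 0.0159. Col9a1 rose at 24 h and read 7.92, 8.29, 8.14 and 7.73 in the CtrlGFP arrays and 7.23, 7.66, 7.91 and 7.93 in the Fezf2GFP arrays at 48 h, where the groups overlapped, a difference of -2.73 ± 0.39 (SE), adjusted p = 0.0159. Trim5, a TRIM-family protein, was raised at 24 h and dim in all 8 arrays at 48 h (-1.57 ± 0.24 (SE), adjusted p = 0.0286). Slc15a2 and 2210408K08Rik, both lower at 24 h, were near the controls at 48 h (1.35 ± 0.22 (SE), adjusted p = 0.037, and 1.56 ± 0.25 (SE), adjusted p = 0.037). The other 5, Cdhr1, Pappa2, Stac2, Tmem117 and Hmgcll1, had changes near 0 at 24 h (from -0.07 to 0.07) and rose at 48 h by 1.94 to 3.33. The count was 0 without any 1 of CtrlGFP 24 h replicates 2 and 3, Fezf2GFP 24 h replicate 3 and CtrlGFP 48 h replicate 3, and 3 to 5 without CtrlGFP 24 h replicate 1, Fezf2GFP 24 h replicate 1 or 2, or CtrlGFP 48 h replicate 4.

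**Figure D4:**
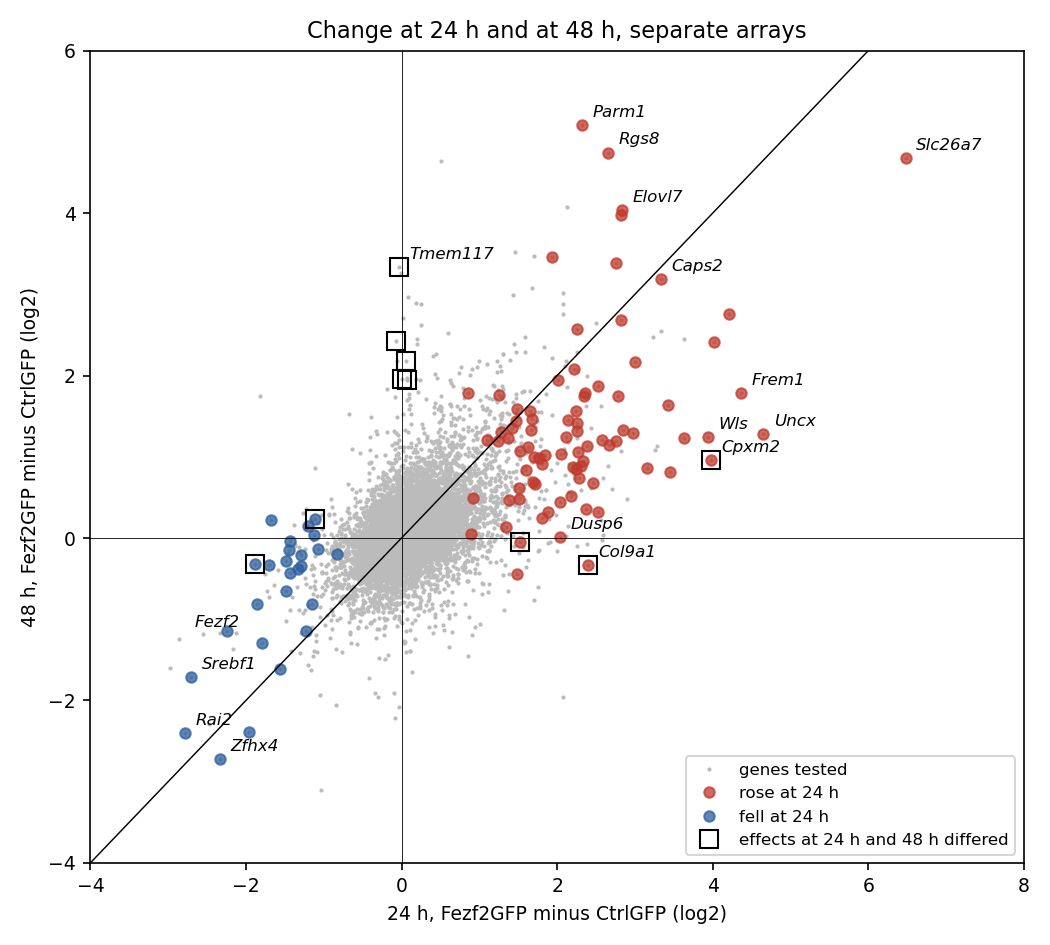
The plot sets the log2 change at 24 h (horizontal axis) against that at 48 h (vertical axis), Fezf2GFP minus CtrlGFP, for each gene tested (small grey points), with the 83 rises at 24 h in red, the 26 falls in blue, squares around the 10 genes whose effects at the 2 times differed, and a line of equal change. Most red points lie above 0 and below the line, since 80 of 83 kept their direction and 71 were smaller at 48 h.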

How the data were processed

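Affymetrix mouse arrays measured RNA of FACS-purified GFP-positive cortical cells in 14 samples. The deposited values are log2 intensities that the authors normalised with GCRMA, per the submitters' processing notes; neither its version nor settings appear in those sources. Number and signal of arrays limit the precision. Of the probe sets, 34945 had 1 gene symbol, 932 several and 9160 none. Each gene was read from its brightest probe set on average, and 7898 genes not above 4 in at least 3 arrays were set aside. All 14 arrays entered 1 limma fit (limma 3.58.1, R 4.3.3; lmFit and eBayes, 10 residual degrees of freedom), with the Benjamini-Hochberg threshold at 0.05 over all genes tested. A gene whose arrays in 1 group were all dim was given a lower bound on its fold, against 4 or its own level. The fit was tested on simulated data, with independent noise of the same spread for a gene in every array. Those data held no arrays that stood apart, so that test does not cover such arrays. By a written rule any gene that passed could be named, with all 6 array values for the 12 largest rises and 10 largest falls by fitted log2 difference and passing list members; so could genes fixed by name, up to 3 members of smallest p of a list in which none passed, and genes of the difference test. Members and lists were chosen with earlier results of these data known. The 45 lists were also edited after values were seen: aliases and unrelated genes were removed, and Sulf2, Parm1, Rgs8, Rai2 and Btbd17 were taken out of lists they had been entered in for their results (Rgs8 stayed among the Rgs genes). Promoters came from a RefSeq table (read with Python 3.11.15). The labels do not say whether replicate numbers pair the arrays, and the main fit did not pair them. Deviations from the group mean correlated between arrays of the same number at 0.318, 0.223 and -0.00597 at 24 h. At 48 h these values were -0.0558, 0.286, 0.0152 and 0.269. Alternatives changed the filter, scaling, probe set rule, arrays in the fit and test.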

Additional observations from a re-analysis of the deposited data

Results flagged for a closer look

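Of the 10295 genes tested, 10 changed differently at 48 h and at 24 h by limma's test of the difference between the effects (0.0971%). Cdhr1 (2.12), Pappa2 (1.88), Stac2 (2.49), Tmem117 (3.36) and Hmgcll1 (1.95) had effects that were higher at 48 h by the log2 value in brackets, and 2210408K08Rik (1.56) and Slc15a2 (1.35), both lower at 24 h, did not pass at 48 h. Cpxm2 (-3.02), Col9a1 (-2.73) and Trim5 (-1.57) had lower effects at 48 h; all 4 Fezf2GFP arrays of Cpxm2 were then still above all 4 controls, while Col9a1 and Trim5 overlapped. The adjusted p was 0.0159 for Cdhr1, Pappa2, Cpxm2, Stac2, Col9a1 and Tmem117, 0.0286 for Hmgcll1 and Trim5, and 0.0370 for 2210408K08Rik and Slc15a2.

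One array stood far from the others of its group in Cpxm2. In the Fezf2GFP arrays at 48 h it read 4.22, 4.22, 4.21 and 5.10, and the gap between the highest array and the next was 0.983 of the range of the group, above Dixon's 95% value. Groups of 3, which include both groups at 24 h, were not tested in this way, and chance marks about 1 in 20 groups.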

How the results depend on the processing

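Every call count below is for an adjusted p of 0.05. At 24 h the 109 calls became 63 with the 24 h arrays alone and 2030 with array weights, where limma's weights stopped before convergence; 48 h then gave 550 and the difference between times 240. Leaving out 1 array gave 50 to 165 calls at 24 h, 188 to 373 at 48 h and 0 to 12 for the difference. The difference gave 4 with a dim level of 6 and 16 with every probe set kept. With the replicate number as a block, a pairing that the labels do not state, 24 h gave 82 calls (69 shared), 48 h 211 and the difference 0. Fezf2 was then -1.86 (adjusted p = 0.022). Fezf2 lost its call with no filter on dim probe sets (-1.86, adjusted p = 0.0883) and with the gene span trend removed (-1.75, adjusted p = 0.0715), and ran from -2.10 to -1.74 (adjusted p 0.0112 to 0.157) with 1 array left out. The causes were not tested. The remaining alternatives gave 88 to 126 calls at 24 h, and 0 of the 109 genes changed sign in any of them; 28 passed in each alternative that held them, and 17 in fewer than 14. Low signal limits the genes whose control arrays were dim, since their folds are bounds.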
